A study of Mus musculus with 6 samples.

Results

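The genes described here mark the epithelium of the choroid plexus, the sheet of cells in the brain ventricles that makes cerebrospinal fluid. They were taken by symbol from a list of 10 names, Ttr, Folr1, Kl, Clic6, Aqp1, Kcne2, Enpp2, Otx2, Slc4a5 and Kcnj13, and all 10 were found among the 23282 entries of the count tables. RNA came from male C57BL/6J mice, 8 to 10 weeks old and wild type by their labels, kept for 10 days on either normal chow (NCD) or a diet with 60 kcal% fat (HFD). There were 3 libraries per diet, each from 1 hemisphere of a forebrain freed of olfactory bulbs and cerebellum, and the labels do not state whether each hemisphere came from its own mouse. If they did not, the p-values measure only the spread between these libraries.

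The choroid plexus epithelium stands between fenestrated capillaries and the ventricle. It moves sodium, bicarbonate, potassium and water across the cell layer to form cerebrospinal fluid, takes up folate and other vitamins from blood, and secretes carrier proteins into the fluid. Transthyretin is its best known secreted product, and the tissue is a thin fringe within each ventricle, so a forebrain library holds its RNA diluted by that of all other brain cells. In such bulk RNA, fewer choroid plexus cells and less RNA per cell cannot be told apart.

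The total count per library lay between 6842785 and 9689372 reads. Libraries were made with QuantSeq, which primes on the poly(A) tail and reads the 3′ ends of transcripts, so counts were not divided by transcript length and levels are not ranked between genes. Levels are given as CPM, read counts scaled to library size with TMM factors. Markers of forebrain neurons were present throughout, with a summed level of 6 genes between 2380 and 2653 CPM, among them the synaptic gene Snap25 and the neuronal nuclear gene Rbfox3. The cerebellar granule cell gene Gabra6 had 1 read in all 6 libraries together, while Pcp2, on the same cerebellar list, had between 94 and 191 per library. That list summed to between 58.3 and 119 CPM, of which Calb2 alone made up between 39.5 and 95.6 CPM. HFD replicate 3 stood apart by anterior pituitary transcripts, with 7943 reads of the growth hormone gene Gh where the other libraries had between 12 and 71, and with 956 of the prolactin gene Prl. Liver transcripts were highest in NCD replicates 1 and 2.

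The first question was whether the diet moved the choroid plexus genes. By edgeR's quasi-likelihood fit, adjusted by Benjamini-Hochberg over the 13771 genes tested, 0 of the 10 members had an adjusted p under 0.05, and their adjusted p lay between 0.979 and 0.999. Over all genes tested, 0% were called in this way. At an unadjusted p under 0.05 there was 1 member, Kcnj13, where 3.68% of all genes tested passed in either direction, 1.71% with higher and 1.98% with lower values on the HFD. DESeq2 and limma after quantile normalization each also gave 0 members at an adjusted p under 0.05 and 1 at an unadjusted one. The log2 fold change of HFD over NCD was over 0 in 7 members and under 0 in 3. Its median over the members was 0.04, against -0.00245 over all genes tested.

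**Figure D1:**
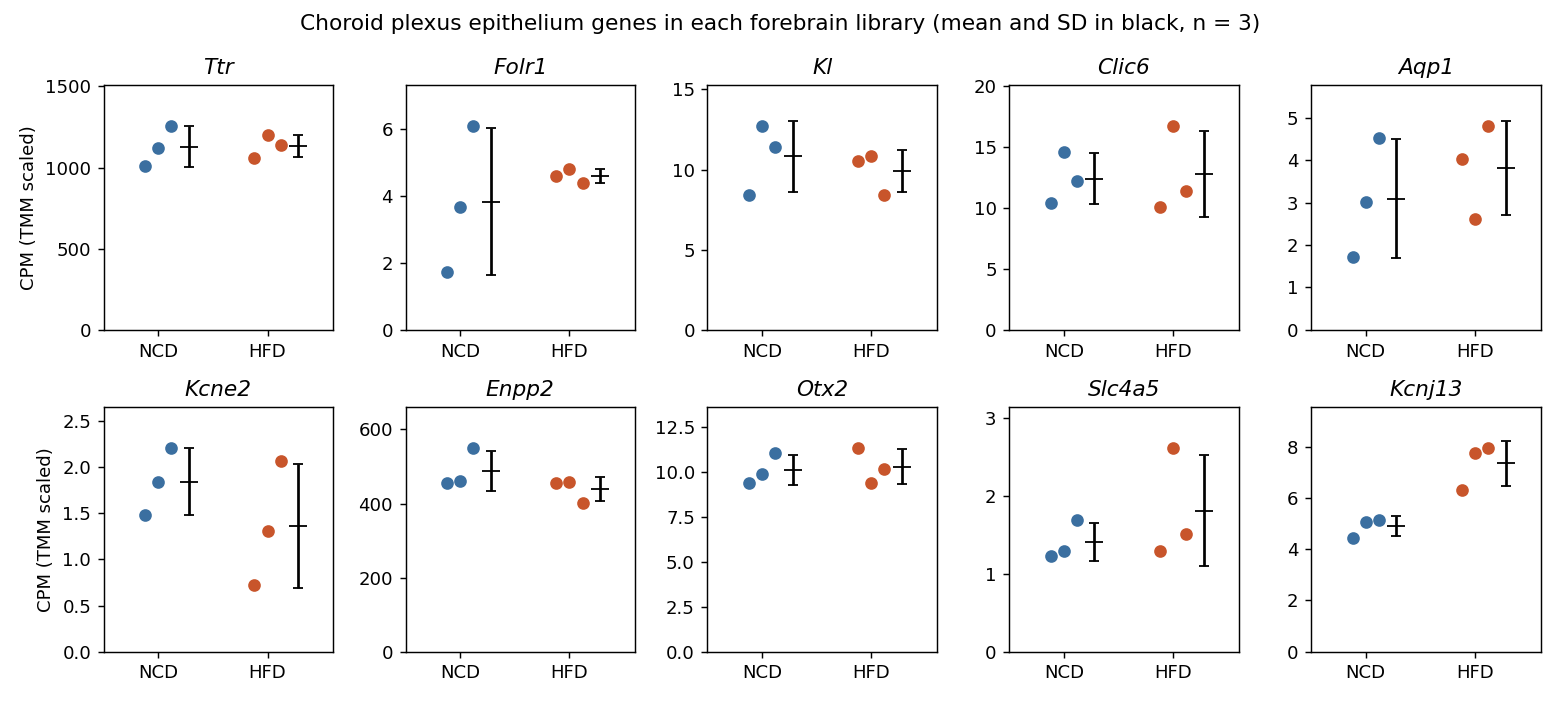
CPM of each of the 10 genes (y axis, each panel with its own scale from 0) in the 3 NCD libraries (blue) and the 3 HFD libraries (orange), with the mean and SD of each diet in black. Ttr stayed between 1008 and 1257 CPM in all 6 libraries, and the groups are apart without overlap for Kcnj13 alone of the 10.

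Among the secreted products, Ttr encodes transthyretin, which carries thyroid hormone and, with retinol-binding protein, vitamin A. The gene lies on chromosome 18 from 20665280 to 20674321 of GRCm38. Its counts of 8164, 10368 and 11936 in NCD replicates 1, 2 and 3 corresponded to 1008, 1118 and 1257 CPM, and its counts of 7364, 10959 and 8282 in HFD replicates 1, 2 and 3 to 1060, 1198 and 1139 CPM. The HFD libraries all lay within the range of the NCD libraries. HFD minus NCD, the log2 difference was 0.00538 (standard error 0.10, 95% interval -0.21 to 0.22), and as a ratio the interval ran from 0.867-fold to 1.16-fold. The sign of this small difference turned in several alternatives, for example to -0.07 without NCD replicate 1. Ttr had the narrowest interval of the 10 members.

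Enpp2, on chromosome 15 from 54838901 to 54952892 of GRCm38, encodes autotaxin, a secreted enzyme that makes lysophosphatidic acid and that oligodendrocytes also express. It had 455, 460 and 551 CPM in NCD replicates 1, 2 and 3 and 456, 459 and 402 CPM in HFD replicates 1, 2 and 3. NCD replicate 3 was the highest and HFD replicate 3 the lowest, while the other 4 libraries were close to each other. The log2 fold change of Enpp2 was -0.15 (standard error 0.11, 95% interval -0.38 to 0.07), and it was -0.06 without NCD replicate 3 and -0.10 without HFD replicate 3. Gm26684 has an exon on the other strand that overlaps Enpp2, and the sources used here do not say whether the counting used strand.

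Kl encodes klotho, a membrane protein of the choroid plexus and kidney that is also shed into the fluid and that serves as a co-receptor for a fibroblast growth factor. The gene lies on chromosome 5 from 150952607 to 150993817 of GRCm38. In the order of the replicates, Kl had 8.39, 12.7 and 11.4 CPM with NCD, then 10.5, 10.8 and 8.39 CPM with HFD. NCD replicate 1 and HFD replicate 3 were alike the lowest, and the groups overlapped. Its log2 difference was -0.13 (standard error 0.21, 95% interval -0.57 to 0.31), and it was 0.000496 without NCD replicate 2.

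Among the channels and transporters that drive fluid secretion, Kcnj13 was the one member with an unadjusted p under 0.05. It encodes Kir7.1, an inwardly rectifying potassium channel at the apical face of the epithelium. It drew 36, 47 and 49 reads with NCD against 44, 71 and 58 with HFD, or 4.44, 5.07 and 5.16 CPM against 6.33, 7.76 and 7.97 CPM. All 3 HFD libraries were above all 3 NCD libraries. Over all genes tested, the groups were separate in 8.81%, in 4.31% with the HFD higher and in 4.49% with it lower, and among the members this held for 1 of 10. The NCD mean was 4.89 ± 0.391 CPM (SD, n = 3), and the HFD mean was 7.36 ± 0.891 CPM (SD, n = 3). This was a log2 difference of 0.59 (standard error 0.24, 95% interval 0.08 to 1.10), or between 1.05-fold and 2.14-fold, for which edgeR gave an unadjusted p of 0.0271 and, over all genes, an adjusted p of 0.979. The difference did not pass adjustment over the genes tested.

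Over 13 alternative fits the log2 fold change of Kcnj13 stayed between 0.51 and 0.68, and the unadjusted p was under 0.05 in 10 of them. It was 0.0751 without NCD replicate 1, 0.0803 without HFD replicate 2 and 0.0675 without HFD replicate 3, and the adjusted p lay between 0.839 and 0.9999 over the 13 fits. Kcnj13 lies on the minus strand of chromosome 1 from 87386363 to 87394729 of GRCm38, within the span of Gigyf2, which is transcribed from the other strand. Of the 1270 exon bases of Kcnj13, 623 or 49.1% are also in annotated exons of Gigyf2. Such an exon runs from 87386338 to 87386630 and takes in the 3′ end of Kcnj13, where QuantSeq reads are expected. Gigyf2, which encodes a GYF domain protein of translational repression, had 45.9, 51.3 and 55.0 CPM with NCD beside 52.4, 56.3 and 62.0 CPM with HFD. Its groups overlapped, and its log2 difference was 0.16 (standard error 0.12, 95% interval -0.09 to 0.42). Without knowing that strand was used, reads of Kcnj13 and of Gigyf2 at this place cannot be told apart.

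Kcne2 encodes a small beta subunit of voltage-gated potassium channels and, like Clic6, lies on chromosome 16. The 2 genes are 187606 bases apart, Kcne2 from 92292389 to 92298129 and Clic6 from 92485736 to 92541243 of GRCm38. Kcne2 had few reads, namely 12, 17 and 21 with NCD beside 5, 12 and 15 with HFD. HFD replicate 1 was the lowest, at 0.720 CPM, and the other libraries lay between 1.31 and 2.21 CPM. For Kcne2 the log2 difference was -0.43 with a standard error of 0.47 and a 95% interval from -1.43 to 0.56. It was -0.15 without HFD replicate 1, -0.28 without NCD replicate 3 and -0.82 without HFD replicate 3. Clic6, which encodes a chloride intracellular channel protein, had 10.4, 14.6 and 12.2 CPM with NCD beside 10.1, 16.7 and 11.4 CPM with HFD. Both its highest and its lowest value were on the HFD. Clic6 differed by 0.05 on the log2 scale (standard error 0.21, 95% interval -0.40 to 0.50), and its sign turned without NCD replicate 1, at -0.06, or without HFD replicate 2, at -0.21.

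RefSeq promoter windows were used for 6 of the 10 members. Folr1, Clic6 and Enpp2 had no matching window, and no window of Ttr was searched. Of the 6, 5 had a window of 250 bases before a RefSeq start that held no annotated exon. The windows were searched on both strands for TAATC, the core letters that Otx proteins and other homeodomain factors bind. They were also searched for TAATCC, which contains it. The windows of Kcnj13 and Kcne2 held TAATC, in its reverse form GATTA, and 0 of the 5 members had TAATCC in such a window. A window of Otx2 from 48665110 to 48665359 of chromosome 14 held TAATCC, but it overlaps an Otx2 exon and was left out. Of all 32851 promoter windows of this length, 19.8% held TAATC and 6.25% held TAATCC. These shares are by window and include windows with exons, so they are not like for like with the counts of members. The 2 windows with the letters are shown because Kcnj13 and Kcne2 are potassium channel genes of this epithelium with the highest and the lowest fold change of the 10. They lie at chr1:87394730-87394979 on the minus strand and at chr16:92292139-92292388 on the plus strand of GRCm38.p6, are written 5′ to 3′ along the gene, and have GATTA in capitals, which starts 226 and 32 bases before the start.
Kcnj13: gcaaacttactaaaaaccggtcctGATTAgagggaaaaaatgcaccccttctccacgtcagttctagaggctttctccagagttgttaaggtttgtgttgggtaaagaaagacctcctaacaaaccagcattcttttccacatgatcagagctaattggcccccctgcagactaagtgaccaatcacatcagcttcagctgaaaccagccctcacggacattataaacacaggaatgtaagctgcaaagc
Kcne2: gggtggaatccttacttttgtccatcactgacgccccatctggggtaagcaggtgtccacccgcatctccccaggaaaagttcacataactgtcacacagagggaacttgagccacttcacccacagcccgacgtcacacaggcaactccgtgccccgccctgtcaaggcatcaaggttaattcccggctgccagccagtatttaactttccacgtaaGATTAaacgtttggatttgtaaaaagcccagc
A match of letters is a description of the window and not a binding site, and binding was not measured.

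Slc4a5, on chromosome 6 from 83219828 to 83304945 of GRCm38, encodes a sodium bicarbonate cotransporter of the apical membrane. It drew 10, 12 and 16 reads with NCD and, with HFD, 9, 24 and 11. The highest count came from HFD replicate 2, at 2.62 CPM, and the other 5 libraries lay between 1.23 and 1.69 CPM. The log2 difference was 0.38 (standard error 0.45, 95% interval -0.58 to 1.34), and without HFD replicate 2 it was -0.00458. Aqp1 encodes the water channel aquaporin-1 and lies on the same chromosome from 55336432 to 55348555. Its 14, 28 and 43 reads with NCD and 28, 24 and 35 with HFD gave 1.73, 3.02 and 4.53 CPM against 4.03, 2.62 and 4.81 CPM. NCD replicate 1 was the lowest, and the groups overlapped. For Aqp1 the log2 difference was 0.28 (standard error 0.38, 95% interval -0.54 to 1.09). Single libraries moved it from 0.00305 without NCD replicate 1 and 0.07 without HFD replicate 3 to 0.66 without NCD replicate 3, and it was 0.50 without HFD replicate 2.

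Folr1 encodes folate receptor alpha, through which the epithelium passes folate from blood to fluid; its locus is chromosome 7, 101858331 to 101870788 of GRCm38. It drew 14, 34 and 58 reads with NCD, then 32, 44 and 32 with HFD. On the CPM scale these were 1.73, 3.67 and 6.11 with NCD beside 4.61, 4.81 and 4.40 with HFD. The NCD libraries held both the lowest and the highest value, with an SD of 2.20 CPM (n = 3), while the SD of the HFD libraries was 0.204 CPM (n = 3). For Folr1 the log2 difference was 0.25 (standard error 0.37, 95% interval -0.53 to 1.03), and it was -0.09 without NCD replicate 1.

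Otx2 encodes the homeobox transcription factor that specifies and maintains choroid plexus epithelium and is also expressed in dorsal midbrain, retina and pineal gland. In GRCm38 the gene spans 48657677 to 48673819 of chromosome 14. It had 9.38, 9.92 and 11.1 CPM with NCD beside 11.4, 9.40 and 10.2 CPM with HFD. All 6 libraries lay within a 1.21-fold range. Its log2 difference was 0.02 (standard error 0.19, 95% interval -0.38 to 0.43), with a sign that turned without NCD replicate 1, at -0.03, or without HFD replicate 1, at -0.05. Gm49154 on the same strand and Otx2os1 on the other have exons that overlap Otx2, so its count is uncertain.

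**Figure D2:**
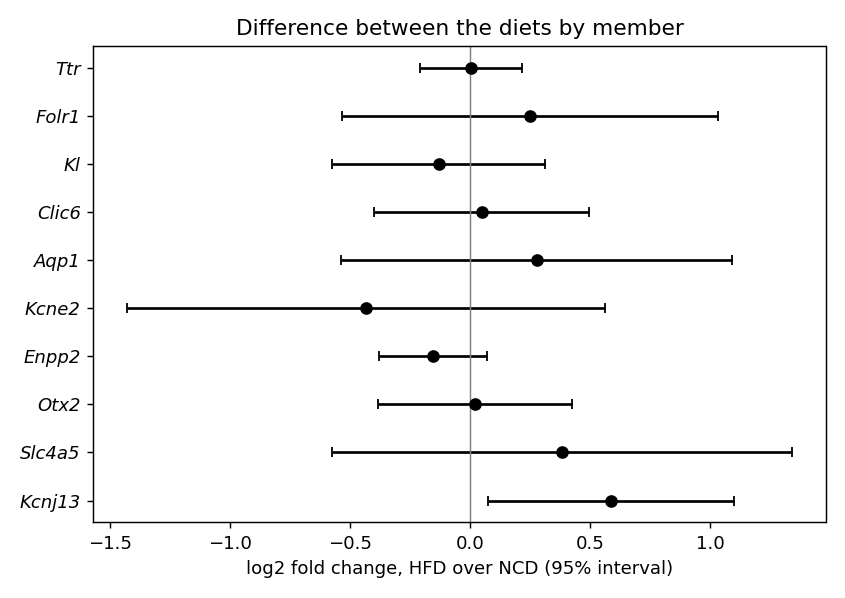
Log2 fold change of HFD over NCD (x axis) for each of the 10 genes (y axis), with bars for the 95% interval of edgeR's quasi-likelihood fit on 3 libraries per diet. The interval of Kcnj13, from 0.08 to 1.10, lies above 0, and the other 9 intervals hold 0.

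The members differed widely in the number of reads behind these intervals. Ttr and Enpp2 had a mean of 9512 and 3914 reads per library, and Clic6 had 107. The other 7 members had a mean between 13.7 and 87.8 reads, where the median over all genes tested was 182.5. A 2-fold lower level on the HFD lay within the 95% interval of Kcne2, and a 2-fold higher level within those of Slc4a5, Aqp1, Folr1 and Kcnj13.

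The second question was how the members varied from hemisphere to hemisphere and whether they did so together. The highest library exceeded the lowest by between 1.21-fold for Otx2 and 3.54-fold for Folr1. The median of this ratio was 1.73 over the members and 1.46 over all genes tested, whose median number of reads was also higher. The spread was next set against counting error by a chi-square divided by its degrees of freedom, which is 1 where reads scatter by counting alone and is under 2.214 in 95% of such cases. It was over that value in 7 of 10 members, and in 68.3% of all genes tested. Otx2 had the lowest value, 0.562, followed by Kcne2 at 1.45 and Slc4a5 at 1.499, so the spread of these 3 genes was not larger than counting error could give. Folr1 was at 4.29, Clic6 at 4.48 and Aqp1 at 3.44, with Kcnj13 at 3.01 and Kl at 2.34. Ttr and Enpp2 reached 61.8 and 43.1, since their many reads make even an 8.0% and a 10.4% coefficient of variation larger than counting error. Counting error, here and in the exact intervals below, does not cover copies made during amplification, since the tables carry no molecular identifiers.

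NCD replicate 1 was the lowest of the 6 libraries in 6 of the 10 members, and NCD replicate 3 the highest in 4. In NCD replicate 1, the median deviation of the members from their own means was -0.26 on the log2 scale. The median deviation lay between -0.02 and 0.15 in the other libraries. The 8 members other than Ttr and Enpp2 summed to 38.8 CPM in NCD replicate 1 and to between 48.9 and 56.1 CPM in the others. No member was highest in NCD replicate 1, and none was lowest in NCD replicates 2 and 3 or HFD replicate 2. The same counts and deviations were not taken over all genes tested. Whether NCD replicate 1 was low in the members in particular was therefore not tested.

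**Figure D3:**
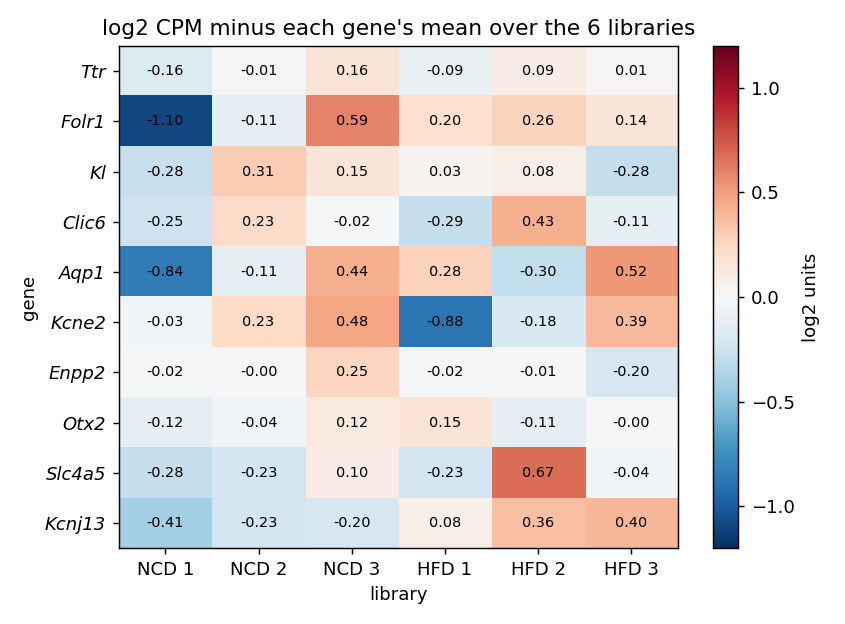
Log2 CPM of each gene (rows) in each library (columns) minus the mean of that gene over the 6 libraries, in log2 units, with red above and blue below the mean. NCD replicate 1 is below the mean in all 10 genes, most in Folr1 and Aqp1, whereas Kcne2 is lowest in HFD replicate 1.

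Taken against Ttr within each library, the low value of Folr1 in NCD replicate 1 remained. There were 1.71 counts of Folr1 per 1000 counts of Ttr in that library (exact 95% interval 0.937 to 2.88), against 3.28 and 4.86 in NCD replicates 2 and 3. The HFD libraries had between 3.86 and 4.35. The interval of NCD replicate 1 did not overlap that of NCD replicate 3, which ran from 3.69 to 6.29. Aqp1 stood at the same 1.71 per 1000 in NCD replicate 1 and between 2.19 and 4.23 elsewhere. For Kcnj13 the ratio was 4.41, 4.53 and 4.11 per 1000 with NCD beside 5.98, 6.48 and 7.00 per 1000 with HFD, without overlap between the diets. The exact intervals of single libraries, such as 3.09 to 6.11 for NCD replicate 1 and 4.34 to 8.03 for HFD replicate 1, did overlap. This ratio uses the same Kcnj13 reads as its CPM, and Ttr differed little between libraries, so it is no separate evidence. The share of all genes tested that were separate on this scale was not taken. Slc4a5 was between 1.16 and 1.34 per 1000 in 5 libraries and at 2.19 in HFD replicate 2.

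**Figure D4:**
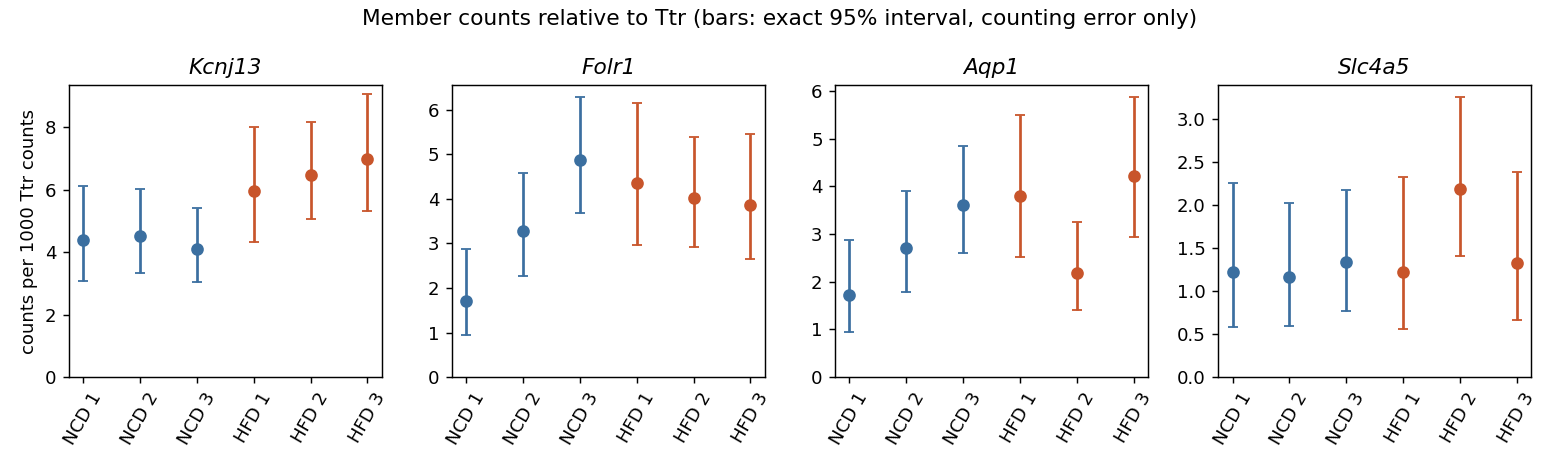
Counts of Kcnj13, Folr1, Aqp1 and Slc4a5 per 1000 counts of Ttr (y axis) in each library (x axis, NCD in blue and HFD in orange), with bars for the exact 95% interval, which covers counting error only. Kcnj13 lies between 4.11 and 4.53 with NCD and between 5.98 and 7.00 with HFD, and Folr1 is lowest in NCD replicate 1.

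Over the 6 libraries, log2 CPM of all 9 other members had a positive Pearson correlation with that of Ttr, with a median r of 0.51. With exact two-sided permutation tests over the 720 pairings and Benjamini-Hochberg adjustment over the 9 genes, 0 of the 9 had an adjusted p under 0.05. The strongest was Folr1, with r = 0.83 (exact permutation p = 0.0264, adjusted p = 0.237) and a Spearman rho of 0.83 (exact permutation p = 0.0583, adjusted p = 0.263). Slc4a5 followed with r = 0.69 (exact permutation p = 0.122, adjusted p = 0.445) and a rho of 0.89 (exact permutation p = 0.0333, adjusted p = 0.263). Without NCD replicates 1 and 3, the libraries farthest from the median of Ttr, r was 0.22 for Folr1 and 0.87 for Slc4a5, and it was under 0 in 4 of the 9, at -0.95 for Otx2, -0.52 for Aqp1, -0.09 for Enpp2 and -0.08 for Kl. These values come from 4 libraries with a narrowed range of Ttr. The relation of Folr1 with Ttr did not hold without both libraries, while r was 0.70 without NCD replicate 1 alone and 0.77 without NCD replicate 3 alone. At the other end, Otx2 had r = 0.21 (exact permutation p = 0.672, adjusted p = 0.672) and rho = 0.26 (exact permutation p = 0.658, adjusted p = 0.658).

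The remaining 6 genes had r between 0.35 for Kcnj13 and 0.59 for Clic6. With the mean of each diet taken out, the median r with Ttr was 0.61, and that of Kcnj13 was 0.78. Without NCD replicate 1, r was -0.11 for Kcnj13 and -0.21 for Otx2, and without NCD replicate 3 it was -0.20 for Enpp2 and -0.19 for Otx2. Over all 45 pairs of members, r was over 0 in 37 and under 0 in 8, with a median of 0.30 and a range from -0.52 to 0.83. All these correlations share 6 libraries and their scaling, and the pairs share genes.

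The genes most like the members in profile were then sought among all genes tested, by Pearson r with the mean standardized profile of the 10 members over the 6 libraries. The 5 genes with the highest r were Ica1, BC004004, Primpol, Mgme1 and Papss2, with r between 0.981 and 0.986. Ica1 encodes an islet autoantigen of vesicle traffic and had 24.8, 30.9 and 35.3 CPM with NCD beside 30.2, 34.6 and 32.0 CPM with HFD. Primpol encodes a primase-polymerase, Mgme1 a mitochondrial exonuclease and Papss2 a sulfate donor synthase. None of the 5 is on the lists of choroid plexus genes used here. They were picked as the highest of all genes tested over 6 libraries, and their r is a description.

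A further 41 genes of choroid plexus epithelium were listed by role, of which 31 had enough reads to be tested. Whether other brain cells also express them was not tested, so their values cannot be assigned to this epithelium alone. By edgeR, 0 of the 31 had an adjusted p under 0.05, as over all genes tested (0%), and 1 had an unadjusted p under 0.05, beside 3.68% of all genes tested. The log2 fold change was over 0 in 14 and under 0 in 17, with a median of -0.04 beside -0.00245 over all genes tested. The diets were separate in 5 of the 31, where 8.81% of all genes tested were. The HFD was higher for Slc2a12, Sostdc1, Pcolce and Cab39l and lower for Rdh5. Over all genes tested, it was higher in 4.31% and lower in 4.49%. Their correlation with the mean profile of the 10 members had a median of 0.41, and it was over 0 in 74.2% of them, beside -0.01 and 48.8% over all genes tested that are no members.

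Of these, the gene with an unadjusted p under 0.05 was Cab39l, which encodes a scaffold protein of kinase complexes and is not restricted to choroid plexus. It drew 205, 242 and 232 reads with NCD beside 200, 269 and 288 with HFD. After scaling, all HFD libraries were above the NCD libraries, by 0.36 on the log2 scale (edgeR standard error 0.15, unadjusted p = 0.0239, adjusted p = 0.979). Among 10 further transporter genes, 7 were tested, and 0 had an unadjusted p under 0.05. They ran from -0.28 for Car12, a membrane carbonic anhydrase, and -0.25 for the copper transporter Slc31a1 to 0.08 for Slc13a4, a sulfate transporter, and 0.24 for the sugar transporter Slc2a12. Of the 11 secreted or matrix proteins, all tested, 0 had an unadjusted p under 0.05. The lowest were the growth factor Igf2 at -0.25 and coagulation factor F5 at -0.23, and the highest were Wfikkn2, an antagonist of growth differentiation factors, at 0.36 and Pcolce, an enhancer of procollagen cleavage, at 0.48.

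For 7 junction and keratin genes, 5 were tested. Cldn2, the claudin that makes choroid plexus tight junctions leaky to cations, drew 10, 34 and 26 reads with NCD beside 18, 27 and 11 with HFD, a log2 difference of -0.12 (standard error 0.43). Spint2, a protease inhibitor, was at -0.21, and Cldn1 was at 0.22. The lowest CPM of Cldn2 was in NCD replicate 1, as for Folr1 and Aqp1, but the other tested genes of this list were lowest elsewhere. Cldn1 and Perp were lowest in HFD replicate 3, Spint2 in HFD replicate 1 and Cab39l in NCD replicate 3. Of 13 receptors, regulators and enzymes, 8 were tested, and 0 had an unadjusted p under 0.05. They ran from -0.42 for Steap1 and -0.33 for Rdh5, a retinol dehydrogenase, to 0.04 for the serotonin receptor Htr2c and 0.12 for the prolactin receptor Prlr. Rdh5 was separate and lower on the HFD, with 56, 68 and 61 reads against 40, 44 and 43. Mfrp was at 0 counts in all 6 libraries.

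Other tissues that express some of the members were measured beside them. The summed level of 13 liver genes, among them Alb and Apoa1, was 40.1, 72.3 and 13.6 CPM with NCD beside 9.07, 16.5 and 7.42 CPM with HFD. The 7 that were tested were all lower with HFD at an unadjusted p under 0.05, as were 1.98% of all genes tested, and their adjusted p was 0.979. Liver also makes transthyretin. The libraries with the most liver transcripts, NCD replicates 2 and 1, had 1118 and 1008 CPM of Ttr, and NCD replicate 1 was the lowest of all in Ttr. Of the retinal pigment epithelium, which shares Ttr, Otx2 and Kcnj13 with the choroid plexus, the pigment cell genes Tyr and Mlana had at most 2 reads in a library and Rgr at most 2. Others on that list had more, with between 19 and 38 reads per library for Rpe65 and between 11 and 21 for Best1. The summed level of that list, which includes Rlbp1 and Rpe65, was 20.2, 26.5 and 29.3 CPM with NCD beside 22.0, 27.6 and 31.3 CPM with HFD. Rlbp1 alone made up between 13.3 and 25.0 CPM of that sum. The pineal genes Asmt and Crx were at 0 in all libraries, and Tph1 and Aanat had at most 6 reads. Midbrain genes, among them Th and Slc6a3, were lowest in HFD replicate 3, at 13.9 CPM beside 28.3 to 42.4 CPM elsewhere, while Otx2 in that library was at 10.2 CPM. The part of these tissues in the levels of the members was not tested.

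Cells next to the choroid plexus epithelium were also measured. Ependyma, the ciliated lining of the ventricles, had a summed level of 13 genes, among them Ccdc39 and Foxj1, of 70.7, 71.1 and 92.5 CPM with NCD beside 63.6, 69.7 and 68.9 CPM with HFD. Of its 12 tested genes 10 had a log2 fold change under 0, with a median of -0.17 beside -0.00245 over all genes tested. By edgeR, Rsph1 had an unadjusted p under 0.05, with a log2 fold change of -0.80 and an adjusted p of 0.979. Of all genes tested, 1.98% were lower on the HFD at an unadjusted p under 0.05. Like the sum of all members, the list was highest in NCD replicate 3, but its lowest library was HFD replicate 1. Without Ttr and Enpp2, the sum of the members was highest in HFD replicate 2, at 56.1 CPM beside 54.4 CPM in NCD replicate 3. The 9 genes of meninges and stroma, among them Ptgds and Col1a2, summed to between 2066 and 2841 CPM. Ptgds alone made up between 1964 and 2704 CPM of that sum. The 6 endothelial genes, among them Ly6c1 and Slco1c1, summed to between 127 and 157 CPM. Plvap, a gene of the fenestrated capillaries found in the choroid plexus, drew 81, 80 and 108 reads with NCD beside 50, 107 and 63 with HFD, a log2 difference of -0.11 (standard error 0.22).

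**Figure D5:**
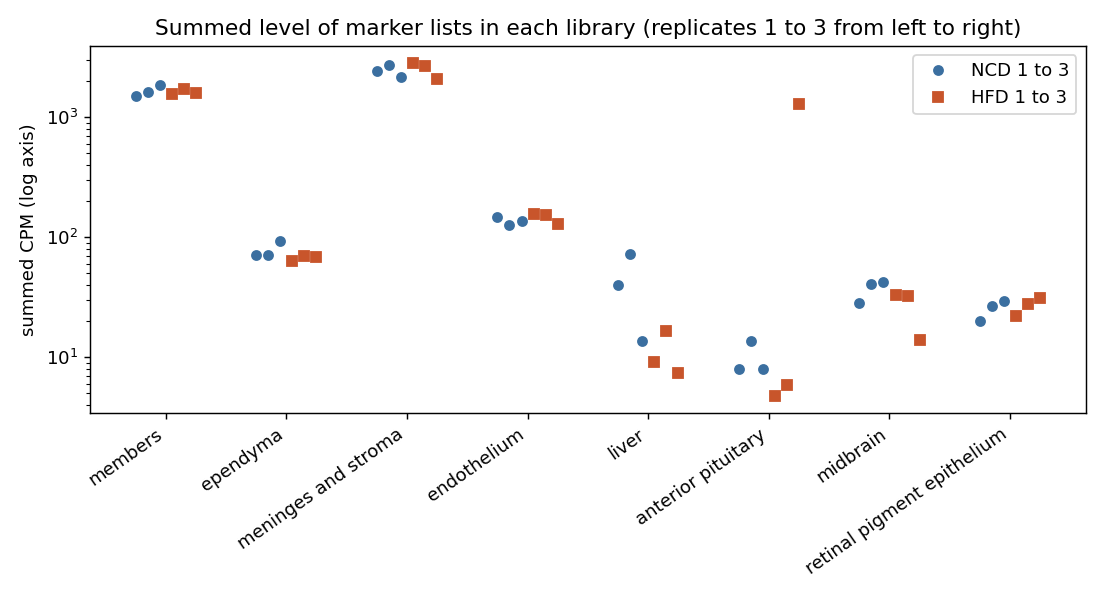
Summed CPM (y axis, log scale) of the 10 members and of marker lists for other cells and tissues (x axis), with NCD replicates 1 to 3 as blue circles and HFD replicates 1 to 3 as orange squares. The members stay between 1501 and 1863 CPM, while liver genes are highest in NCD replicates 1 and 2 and pituitary genes in HFD replicate 3. Most of the sum of the members is Ttr and Enpp2, and the members without these sum to between 38.8 and 56.1 CPM. Ptgds alone gives between 1964 and 2704 CPM of the sum for meninges and stroma.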

How the data were processed

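By the study's methods and the submitters' processing notes, QuantSeq 3′ reads were adaptor trimmed, aligned to mm10 with Bowtie2, and counted per gene with bedtools from unique and multiple alignments. The authors deposited these read counts for each of the 6 libraries without normalization. Tool versions, the annotation and the use of strand are not given in the sources used here, and multiple alignments can add reads to genes with near copies. Groups follow the sample titles, with 3 libraries per diet and total counts between 6842785 and 9689372. A count of 3, the floor for counting error, is between 0.310 and 0.438 CPM of the total reads.

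Tests were run with edgeR 4.0.16 in R 4.3.3 (filterByExpr at its defaults of 10 counts and a total of 15, TMM, glmQLFit and glmQLFTest, no covariate, Benjamini-Hochberg adjustment over 13771 genes), limma 3.58.1 and DESeq2 1.42.0. All 10 members passed the filter. Standard errors are the log2 fold change over the square root of F. Correlations used log2 CPM with a prior count of 2. The fits were tested on simulated counts. Alternatives in scaling, filter, tool and libraries are given in the closing section. The replicate numbers were not treated as pairs. Members and gene lists were chosen with earlier results of these data known. Genes named are all members, tested genes of the further choroid plexus lists with an unadjusted p under 0.05 or the 2 highest and 2 lowest fold changes of a list, the 5 genes closest in profile, and the 2 highest genes of other lists, with others chosen after their values were seen. The oligodendrocyte list is not reported here. Of the 14 ependymal genes listed, 13 were in the tables. Positions come from GENCODE vM21 and promoters from RefSeq, both on GRCm38. Plots and tables used Python 3.11.15, pandas 2.3.3, scipy 1.17.1 and matplotlib 3.10.9.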

Additional observations from a re-analysis of the deposited data

How the results depend on the processing

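Alternatives were DESeq2, upper-quartile scaling, library size alone, limma after quantile normalization, no filter, a minimum of 10 counts in every library (which removed Kcne2 and Slc4a5), a replicate block, and fits that each left out 1 library. Under all of these 0 members had an adjusted p under 0.05. Over all genes, the count of 0 at an adjusted p under 0.05 became 2 with DESeq2 and 23 without a filter, and lay between 0 and 3 with a library left out, the latter without NCD replicate 3. The 507 genes at an unadjusted p under 0.05 became 902 without a filter and between 411 and 773 with a library left out. Among the members this count of 1 lay between 0 and 1, being 0 without NCD replicate 1, HFD replicate 2 or HFD replicate 3. With the replicate block it stayed at 1, with 371 genes in all, and the p of Kcnj13 was 0.0332. Deviations of same-numbered libraries from their group means had correlations of -0.03, 0.05 and -0.06, so the numbers were not taken as pairs.

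Directions turned only for members whose log2 fold change was within its standard error. Ttr was at -0.01376 with library size alone. With a library left out, the range was -0.0693 to 0.0911 for Ttr, -0.0856 to 0.754 for Folr1, -0.280 to 0.000496 for Kl, -0.207 to 0.190 for Clic6, -0.0520 to 0.0905 for Otx2 and -0.00458 to 0.566 for Slc4a5. The range was 0.00305 to 0.657 for Aqp1, -0.824 to -0.148 for Kcne2, -0.203 to -0.0585 for Enpp2 and 0.526 to 0.681 for Kcnj13, whose signs did not turn in these fits. The median correlation with Ttr was 0.22 without the 2 libraries farthest from the median of Ttr, and between 0.39 and 0.62 with 1 library left out. The median ratio of the highest over the lowest library was between 1.48 and 1.73 with 1 library left out. The cause of these changes was not tested. The depth of the members other than Ttr and Enpp2 limits what could be seen.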
